A study of Drosophila melanogaster with 6 samples.

Results

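Aminoacyl-tRNA synthetases join each amino acid to its own transfer RNA, and the 35 fly genes described here encode these enzymes. They were taken by gene symbol from the annotation deposited with the study and linked by FlyBase identifier to a table of 17494 genes. Of the 35 genes, 15, marked by the ending -m, encode enzymes that work inside the mitochondrion. The other 20, whose symbols lack that ending, are called cytosolic here. All 35 passed the filter on low counts that left 10306 genes for testing.

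The question was whether the transcripts of these enzymes differ when M1BP, a DNA-binding protein of the core promoter element Motif 1, is depleted from the precursors of the flight muscle. The libraries, 3 from M1BP RNAi and 3 from WT, were made from polyA RNA of wing disc myoblasts. The animals were at 0 h APF (after puparium formation) and had been kept at 25 °C. M1BP RNAi animals expressed UAS-M1BP RNAi #1 under Mef2-GAL4 together with UAS-GFP::Gma, and WT animals carried the same driver and the same GFP transgene without the RNAi construct, so that GAL4 and GFP were present in both genotypes. Mef2-GAL4 is active in the muscle lineage and also, per the study, in some neurons, while Mef2 itself is expressed in the fat body too. Line #1 was the milder of the RNAi lines of the study, and each library came from the sorted GFP-positive cells of pooled discs.

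Cytosolic and mitochondrial protein synthesis each need a full supply of charged transfer RNAs, and in animals the enzymes of both compartments are encoded in the nucleus. The synthetases fall into class I and class II, which have unrelated catalytic folds and approach the transfer RNA from opposite sides. In mammals several cytosolic synthetases are held together by the AIMP scaffold proteins in a multisynthetase complex, and many synthetase genes are targets of ATF4, the transcription factor of the integrated stress response. The amino acids glutamine, glycine, histidine, lysine and threonine had no mitochondrial gene of their own among the 35. Whether the fly genes for these amino acids serve both compartments was not examined. In mammals the glycine and lysine enzymes of both compartments come from single genes, and mitochondrial glutaminyl-tRNA is made by a GatCAB amidotransferase from tRNA that was first charged with glutamate.

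The targeted gene was checked first. M1BP (chromosome 3R, 8729790 to 8731698, dm6) had 1387, 1841 and 1710 normalised counts in M1BP RNAi libraries, against 5311, 5680.3 and 5216 in WT libraries, where a normalised count is a count divided by the effective size of its library and multiplied by the mean of those sizes. M1BP RNAi libraries thus kept 30.5% of the WT level (log2 fold change -1.71, standard error (SE) 0.10, adjusted p 1.4e-05, quasi-likelihood test of edgeR with Benjamini-Hochberg adjustment over all tested genes, as for all adjusted p below). All 7 myoblast markers were detected, and twi stood at 896 in M1BP RNAi and 915 in WT in CPM per kilobase, a count scaled to library size as in CPM and divided by the exonic length of its gene. Of the 7, 3 had positive and 4 negative log2 fold changes, from -0.15 for ct to 0.11 for Mef2. Only Mef2 had no overlap between genotypes (69.2 in M1BP RNAi and 64.0 in WT, edgeR adjusted p 0.286). The summed level of 5 fat body genes was at most 0.258 in M1BP RNAi and at most 0.154 in WT on the same scale. The summed level of 6 haemocyte genes, most of it Col4a1, was 25.8 to 28.4 in M1BP RNAi and 28.5 to 33.4 in WT. Among these, eater was at 0 in all libraries. All 4 that could be tested had negative log2 fold changes, with edgeR adjusted p of 0.0641 or more. DESeq2 called 2 of them lower at an adjusted p of 0.05, as it did 4.58% of tested genes. For srp (0.101 in M1BP RNAi and 0.268 in WT) and Pxn (3.42 in M1BP RNAi and 4.64 in WT) the genotypes did not overlap. The summed level of 6 genes of differentiated muscle was 4.05 to 7.31 in M1BP RNAi and 5.75 to 6.66 in WT. Of the 5 of these muscle genes that could be tested, Mlc2 fell (1.44 in M1BP RNAi and 4.13 in WT, adjusted p 0.0030, edgeR), and Mhc, up, Act88F and bt had positive log2 fold changes, with adjusted p of 0.0637 or more and, for Act88F (3.40 in M1BP RNAi and 1.89 in WT) and bt, no overlap between genotypes. Summed over 6 wing disc epithelium genes, the level was 66.0 to 70.4 in M1BP RNAi and 69.1 to 69.9 in WT. Nearly all of it was ap (66.7 in M1BP RNAi and 67.9 in WT). Each of the others had a mean of at most 0.80 in either genotype. The summed level of 4 tracheal genes was 5.30 to 9.12 in M1BP RNAi and 7.71 to 17.5 in WT. For 5 neuronal genes it was 2.81 to 3.27 in M1BP RNAi and 3.05 to 3.34 in WT. None of these genes passed an adjusted p of 0.05 with edgeR, while DESeq2 called 1 tracheal gene lower. Without overlap, nub, pnr and serp were lower in M1BP RNAi. Of all tested genes, 12.3% lay lower and 13.8% higher without overlap. The part of all these marker genes in the values below was not tested. Library totals lay between 43086545 and 51855156 counts.

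The cytosolic synthetases were well expressed in these myoblasts and stood far above the mitochondrial set, whose median was near that of all tested genes. The median level of the cytosolic genes was 85.4 CPM per kilobase and that of the mitochondrial genes was 14.7, a ratio of 5.81, beside a median of 13.1 over all tested genes. On this scale, the mean over 6 libraries, every cytosolic gene lay between the 64.4th and the 96.9th percentile of tested genes, while the mitochondrial genes ran between the 34.7th and the 86.6th. The plot of levels per length in each library shows the 2 sets with little overlap.

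**Figure D1:**
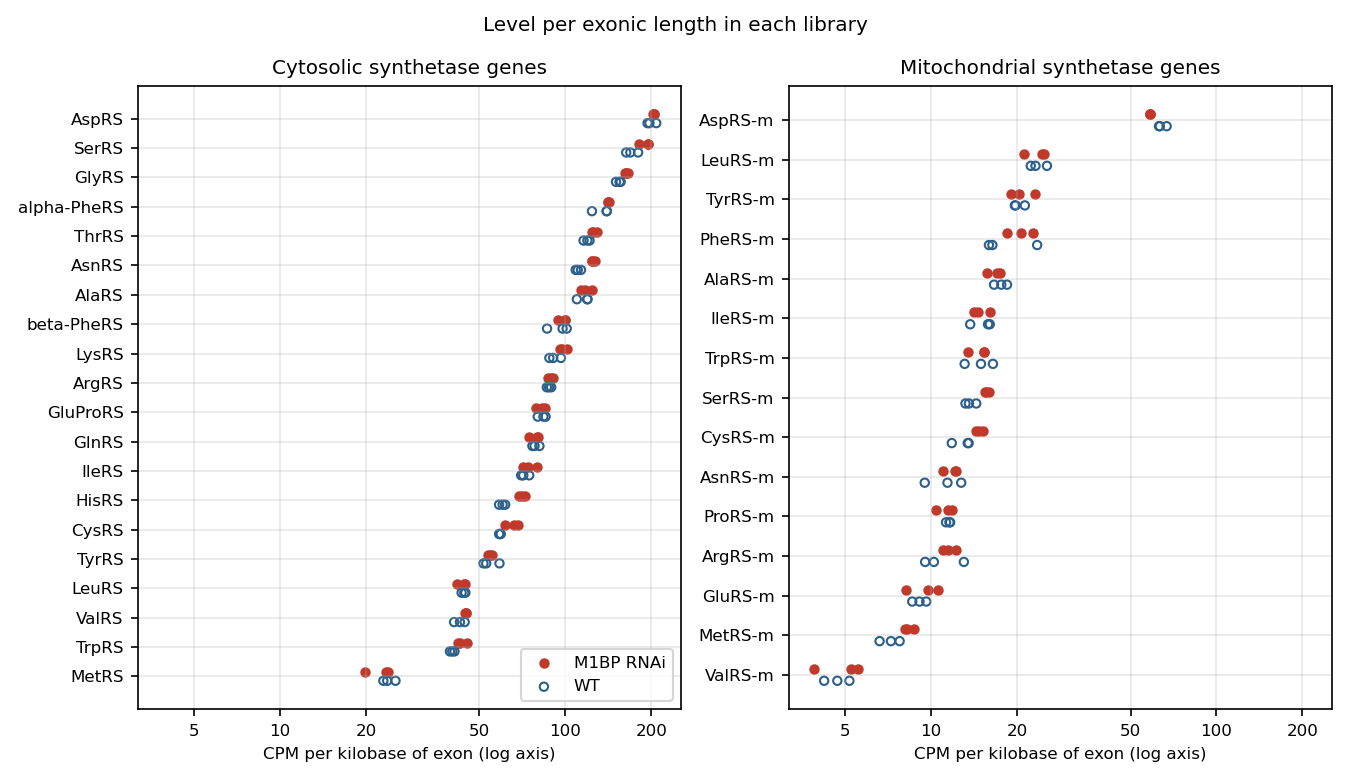
Level of each synthetase gene in each library, in CPM per kilobase of exon on a log axis, with cytosolic genes on the left and mitochondrial genes on the right. Filled red points are the 3 M1BP RNAi libraries and open blue points the 3 WT libraries. Cytosolic genes run from MetRS to AspRS, and among mitochondrial genes AspRS-m stands apart with a mean of 61.4, the next being LeuRS-m at 23.6.

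At the top of the cytosolic set, AspRS, the aspartate enzyme, had 21739, 21484 and 21628 normalised counts in M1BP RNAi, against 22066, 20889.5 and 20572 in WT. The genotypes overlapped, and per length its level was 204 ± 1.20 in M1BP RNAi and 199.8 ± 7.42 in WT (SD, n = 3 each). Its counts are uncertain, since an antisense RNA gene, asRNA:CR45141, covers 63.9% of its exonic bases on the opposite strand. No source used here states that reads were counted by strand, and the study names a stranded kit only for its flight muscle libraries. This antisense gene had 17001 ± 231 normalised counts in M1BP RNAi and 16667 ± 520 in WT, and its part in the AspRS values was not tested. After AspRS came SerRS, GlyRS, alpha-PheRS and ThrRS, with mean levels between 122 and 180.3 over all libraries. At the other end stood MetRS, the methionine enzyme that also charges the initiator tRNA, with a mean level of 23.3. Its 3173, 3821 and 3737 normalised counts in M1BP RNAi, against 3780.0, 4042 and 3666 in WT, overlapped between genotypes, with M1BP RNAi replicate 1 the lowest library.

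Among the mitochondrial genes a single enzyme stood out. AspRS-m had a level of 61.4, and the next, LeuRS-m, was at 23.6. AspRS-m supplied 22.9%, 22.4% and 22.8% of the summed level of all mitochondrial synthetases in M1BP RNAi, against 26.1%, 23.4% and 26.1% in WT, so its share was lower in each M1BP RNAi library than in each WT library. The lowest was ValRS-m, the valine enzyme, at 4.79. ValRS-m had 799.6, 842 and 591 normalised counts in M1BP RNAi, against 642, 714 and 788 in WT. The genotypes overlapped, and M1BP RNAi replicate 3 was the lowest library (log2 fold change 0.059, edgeR adjusted p 0.854).

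Replicates varied less for the cytosolic than for the mitochondrial genes. The median coefficient of variation was 3.10% in M1BP RNAi and 3.31% in WT over the cytosolic genes, and 6.60% in M1BP RNAi and 7.47% in WT over the mitochondrial genes. The widest spread was that of PheRS-m, 22.8% in WT, and the narrowest that of AspRS-m, 0.212% in M1BP RNAi. A mitochondrial synthetase was represented by 578 to 14831 counts in a library and a cytosolic one by 2943 to 24185.

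No synthetase gene passed the threshold of the study. That threshold asks for a change of 1.5-fold or more with adjusted p at or under 0.001, and 0.475% of tested genes passed it (0.505% on the p alone, again with 0 of the 35). At an adjusted p of at most 0.05, 1 member rose in M1BP RNAi, the cytosolic HisRS, and none fell, beside 1.92% of tested genes that rose and 2.17% that fell (4.09% in either direction). At an unadjusted p under 0.05, 4 cytosolic genes (HisRS, AsnRS, SerRS and CysRS) and 3 mitochondrial genes (SerRS-m, MetRS-m and CysRS-m) were higher and 1 mitochondrial gene, AspRS-m, was lower, where 10.1% of tested genes were higher and 10.1% lower. DESeq2 called 2 members higher at 0.05, HisRS and AsnRS, and 0 lower, with 4.02% of tested genes higher and 4.58% lower by the same rule. In RNA from sorted cells in bulk, fewer cells of a type and less RNA per cell cannot be told apart.

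The data bounded any change closely. The 95% interval of the fold change lay inside 1.5-fold in either direction for all 20 cytosolic and all 15 mitochondrial genes. For 19 of the 20 cytosolic genes and 8 of the 15 mitochondrial genes it lay inside 1.25-fold. On the log2 scale the interval bounds reached -0.28 and 0.35 over the cytosolic set and -0.26 and 0.47 over the mitochondrial set, and the median SE was 0.058 for cytosolic and 0.086 for mitochondrial genes. The plot of fold changes with their intervals shows this for each gene.

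**Figure D2:**
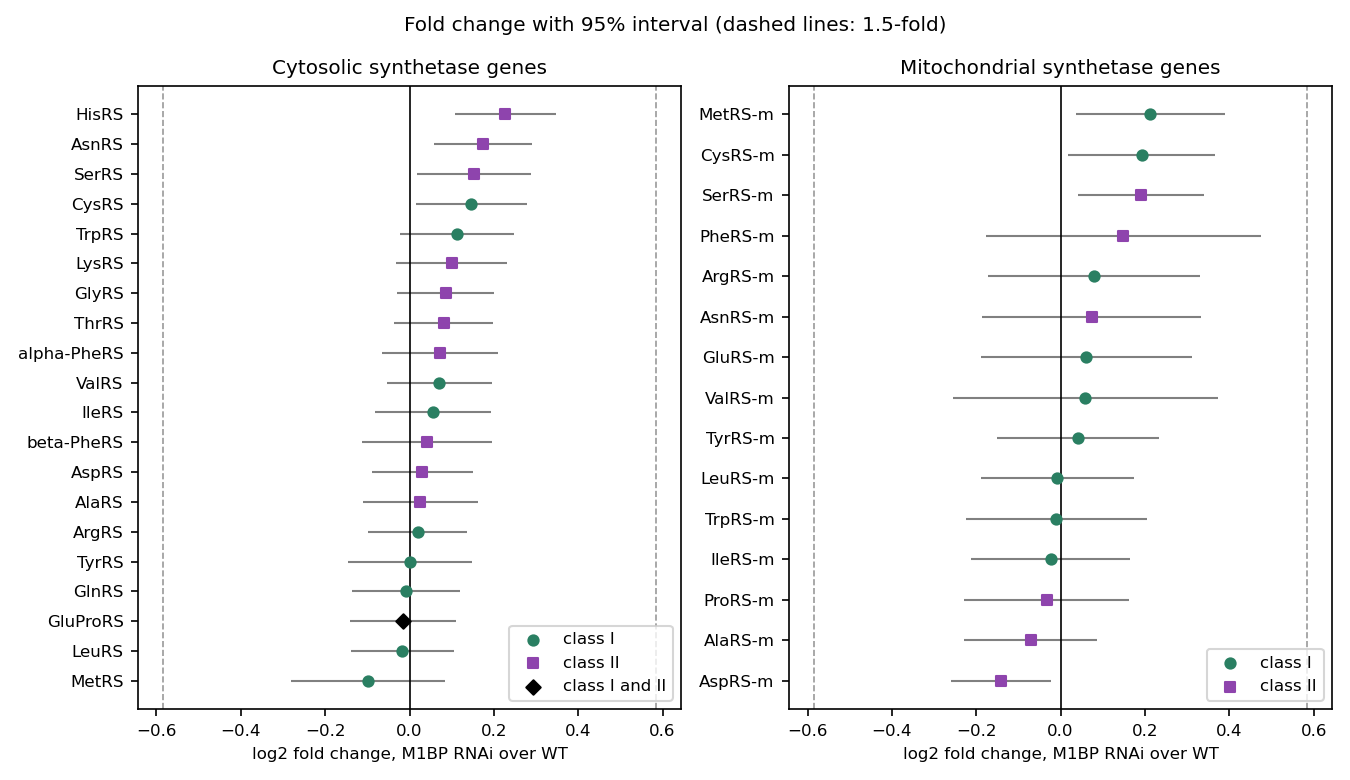
Log2 fold change of each synthetase gene, M1BP RNAi over WT (n = 3 libraries each), with cytosolic genes on the left and mitochondrial genes on the right. Bars are approximate 95% intervals, 2.24 SE on either side of the edgeR estimate. Circles are class I, squares class II and the diamond is GluProRS, which has both. Every interval lies between the dashed lines at 1.5-fold, and HisRS has the highest value at 0.23.

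HisRS, which charges the histidine tRNA, was the 1 member of 35 higher at an edgeR adjusted p of at most 0.05, where 1.92% of tested genes were. It lies on chromosome X at 18515428 to 18520445 on the plus strand and has 6 blocks of exonic sequence. It had 9638, 9219 and 9416 normalised counts in M1BP RNAi, against 8070.0, 8237 and 7842 in WT. Every M1BP RNAi library was above every WT library, by more than the spread within either genotype. The means were 9425 ± 209.9 in M1BP RNAi and 8049.8 ± 198 in WT (SD, n = 3 each), which gave a log2 fold change of 0.23 with an SE of 0.053 and an edgeR adjusted p of 0.0456. This call was at the edge of the threshold: it passed in 2 of 11 alternative fits, with DESeq2 and without WT replicate 2, with adjusted p between 0.0031 and 0.159 over them, while the log2 fold change stayed between 0.20 and 0.24. Of its exonic bases 255 (8.91%) belong also to Bx on the same strand, a gene that had 1331 ± 84.9 normalised counts in M1BP RNAi and 1368 ± 28.9 in WT.

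Next to it stood AsnRS and SerRS. AsnRS (chromosome 2L, 19129469 to 19131954), the asparagine enzyme, had 13742, 14138 and 13809 normalised counts in M1BP RNAi, against 12275, 12603 and 12074 in WT. The genotypes did not overlap, yet the adjusted p was 0.0968 (log2 fold change 0.17, SE 0.052, edgeR). With DESeq2 the adjusted p of AsnRS was 0.0225. SerRS (chromosome 2L, 3035493 to 3037403), the serine enzyme, had 16143, 17354 and 17423 in M1BP RNAi, against 15098, 16074 and 14605 in WT. Here too no libraries crossed, although M1BP RNAi replicate 1 and WT replicate 2 were nearly level (log2 fold change 0.15 with an SE of 0.061, edgeR adjusted p 0.194).

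The lowest fold changes of the cytosolic set were those of MetRS, LeuRS and GluProRS, and none was far from 0. MetRS, whose counts are given above, had a log2 fold change of -0.098 with an SE of 0.082 (edgeR adjusted p 0.536). LeuRS had 7698, 8218 and 8127 normalised counts in M1BP RNAi, against 7969, 8212 and 8142 in WT (log2 fold change -0.017, edgeR adjusted p 0.895). The genotypes of LeuRS overlapped fully. GluProRS, a fused enzyme that charges both the glutamate and the proline tRNA, had 20119, 21567 and 21171 in M1BP RNAi, against 21371, 20414 and 21742 in WT (log2 fold change -0.015, edgeR adjusted p 0.908). Its libraries were interleaved as well, and an antisense RNA gene covers 16.6% of its exonic bases.

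The phenylalanine enzyme is built of 2 kinds of subunit, and their transcripts ran close to each other. alpha-PheRS, the catalytic subunit, had 11184, 11201 and 11297 normalised counts in M1BP RNAi, against 11086, 11104 and 9848 in WT (log2 fold change 0.072, edgeR adjusted p 0.551). No libraries crossed, but WT replicates 1 and 2 came within a narrow margin of M1BP RNAi. beta-PheRS had 9109, 9145 and 8642 in M1BP RNAi, against 9267, 7909 and 8964 in WT, with overlap (log2 fold change 0.041, edgeR adjusted p 0.782). Per length, alpha-PheRS exceeded beta-PheRS 1.42-, 1.41- and 1.51-fold in M1BP RNAi, against 1.38-, 1.62- and 1.27-fold in WT. The range of this ratio in WT enclosed that in M1BP RNAi.

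More cytosolic genes lay above than below WT, by small amounts. Of 20 genes, 16 had a positive log2 fold change, where 51.3% of all tested genes did, and the median was 0.063 (range -0.098 to 0.23) beside 0.0070 over all tested genes and -0.0029 over the 2619 tested genes in the same range of counts. In 9 of the 20 (45.0%) every M1BP RNAi library was above every WT library, namely HisRS, AsnRS, SerRS, CysRS, TrpRS, GlyRS, ThrRS, alpha-PheRS and ValRS, and in none was it below, whereas 13.8% of tested genes lay above without overlap and 12.3% below. That count was 7 to 8 with other normalisations. Among these, CysRS had 7493 ± 412 normalised counts in M1BP RNAi and 6768 ± 44.5 in WT (log2 fold change 0.15, edgeR adjusted p 0.200), and GlyRS had 19436 ± 213 in M1BP RNAi and 18316 ± 360.3 in WT (log2 fold change 0.086, adjusted p 0.383, edgeR; SD, n = 3 each). These counts are descriptions of 1 set of libraries, since genes of a library share its preparation.

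Library by library, the cytosolic genes deviated from their WT mean by a median log2 of 0.056, 0.072 and 0.067 in M1BP RNAi, against -0.0070, 0.027 and -0.036 in WT. The medians of the genotypes did not overlap. Over all tested genes these medians were 0.0052, 0.016 and 0.018 in M1BP RNAi, against 0.0011, 0.0094 and -0.00073 in WT, with overlap. As a share of all counts, the cytosolic genes took 0.493%, 0.508% and 0.498% in M1BP RNAi, against 0.476%, 0.485% and 0.473% in WT. These shares did not overlap either, but they restate the same counts. For the mitochondrial genes the median deviations were 0.019, 0.134 and 0.057 in M1BP RNAi, against -0.081, 0.073 and 0.017 in WT, so that WT replicate 2 lay above 2 of the M1BP RNAi libraries. Their share of all counts was 0.0733%, 0.0737% and 0.0726% in M1BP RNAi, against 0.0699%, 0.0772% and 0.0757% in WT. WT replicate 1 was thus low and WT replicate 2 high for the mitochondrial set, as the plot of deviations by library shows.

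**Figure D3:**
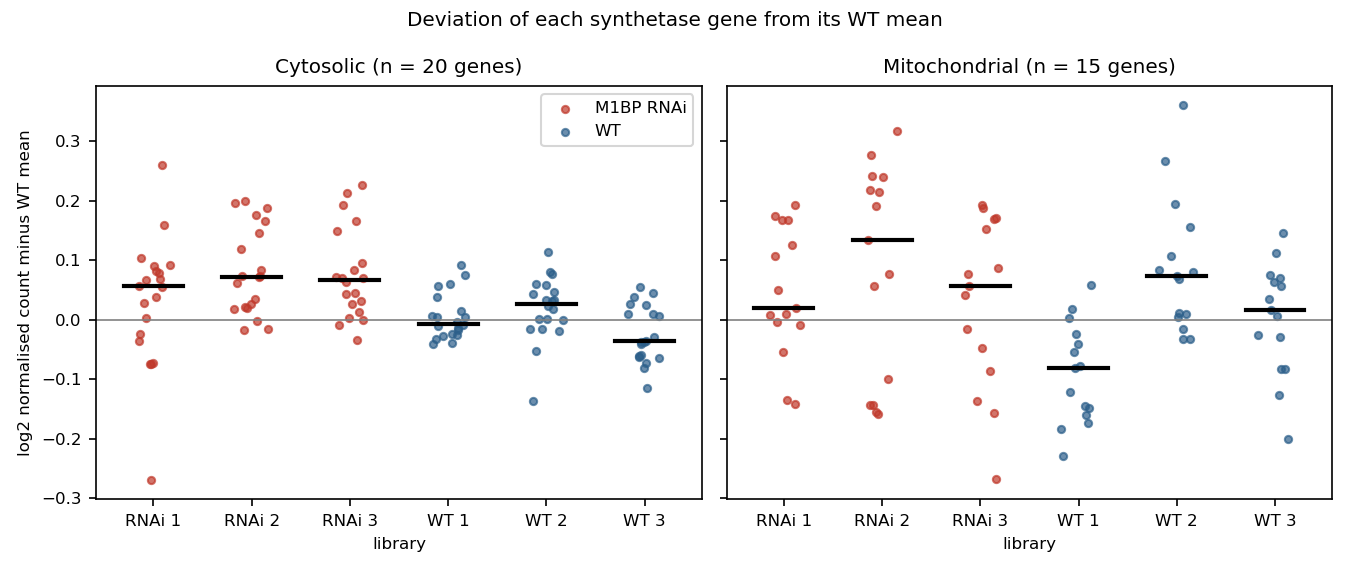
Deviation of each synthetase gene from its mean log2 normalised count in WT, by library, for 20 cytosolic genes (left) and 15 mitochondrial genes (right), with M1BP RNAi in red and WT in blue. Points are genes and black bars their medians. The cytosolic medians lie between 0.056 and 0.072 in M1BP RNAi and between -0.036 and 0.027 in WT, and the mitochondrial medians overlap between genotypes.

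Split by enzyme class, a division made after the data were seen, all 10 class II cytosolic genes had a positive fold change, with a median of 0.083, and 6 of them had no overlap between genotypes. Of the 9 class I cytosolic genes, 6 were positive and 3 negative, with a median of 0.019, and 3 had no overlap (CysRS, TrpRS and ValRS). Over all tested genes 51.3% were positive, and 13.8% lay above and 12.3% below without overlap. Class II medians by library were 0.076, 0.078 and 0.089 in M1BP RNAi, against 0.022, 0.033 and -0.040 in WT. Class I medians were 0.0020, 0.035 and 0.043 in M1BP RNAi, against -0.025, 0.019 and 0.0062 in WT, and overlapped. The difference between the classes was not tested, and without WT replicate 2 the class I median was 0.043. Among mitochondrial genes the median was 0.059 over 9 class I genes and 0.020 over 6 class II genes.

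The mitochondrial set held genes of both signs, 9 positive and 6 negative, with a median of 0.059 (range -0.14 to 0.21) beside 0.020 over the 5087 tested genes in the same range of counts. The cytosolic median exceeded the mitochondrial one by 0.0048, less than the 0.062 by which this difference varied between replicates. Without WT replicate 1 the mitochondrial median was -0.014 and the difference 0.084. In 3 of the 15 genes M1BP RNAi lay above WT without overlap and in 1 below, near the shares of 15.9% above and 11.7% below among the tested genes in that range of counts (13.8% and 12.3% over all tested genes).

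The 3 mitochondrial genes above WT were SerRS-m, MetRS-m and CysRS-m. SerRS-m (chromosome 3R, 15340667 to 15343218) had 1838, 1903 and 1864 normalised counts in M1BP RNAi, against 1576, 1619.9 and 1719 in WT (log2 fold change 0.19 with an SE of 0.067, edgeR adjusted p 0.154). MetRS-m (chromosome 3R, 14249043 to 14259991), which charges the mitochondrial methionine tRNA used in initiation and elongation alike, had 1635, 1756 and 1657 in M1BP RNAi, against 1332, 1459.8 and 1566 in WT (log2 fold change 0.21 with an SE of 0.079, edgeR adjusted p 0.174). CysRS-m (chromosome arm 2R) had 1454, 1503 and 1414 in M1BP RNAi, against 1326, 1335 and 1166 in WT (log2 fold change 0.19 with an SE of 0.078, edgeR adjusted p 0.203). None of the 3 passed the adjusted threshold. Exons of another gene on the opposite strand cover 13.9% of SerRS-m (CG6218) and 14.3% of CysRS-m (CG13016), and CG13016 itself had 1917 ± 118 normalised counts in M1BP RNAi and 1655 ± 87.6 in WT, a part in the CysRS-m values that was not tested. MetRS-m shares no exonic bases with another gene.

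AspRS-m, AlaRS-m and ProRS-m were the mitochondrial genes with the smallest p among those lower in M1BP RNAi. AspRS-m (chromosome 2L, 16827078 to 16832093) had 12070.3, 12056 and 12106 normalised counts in M1BP RNAi, against 13099, 13014 and 13840.0 in WT. The M1BP RNAi libraries were almost identical and all below WT, and the log2 fold change was -0.14 with an SE of 0.053 (edgeR adjusted p 0.175). AlaRS-m had 2638, 2379.6 and 2569 in M1BP RNAi, against 2514, 2792 and 2665 in WT (log2 fold change -0.071, edgeR adjusted p 0.613). ProRS-m, with 815, 739.5 and 841 in M1BP RNAi, against 828, 823 and 801 in WT, had a log2 fold change of -0.033 (adjusted p 0.870, edgeR). Both overlapped between genotypes. The remaining 9 mitochondrial genes overlapped too, with log2 fold changes between -0.024 for IleRS-m and 0.15 for PheRS-m. The plot of normalised counts shows 8 of the named genes.

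**Figure D4:**
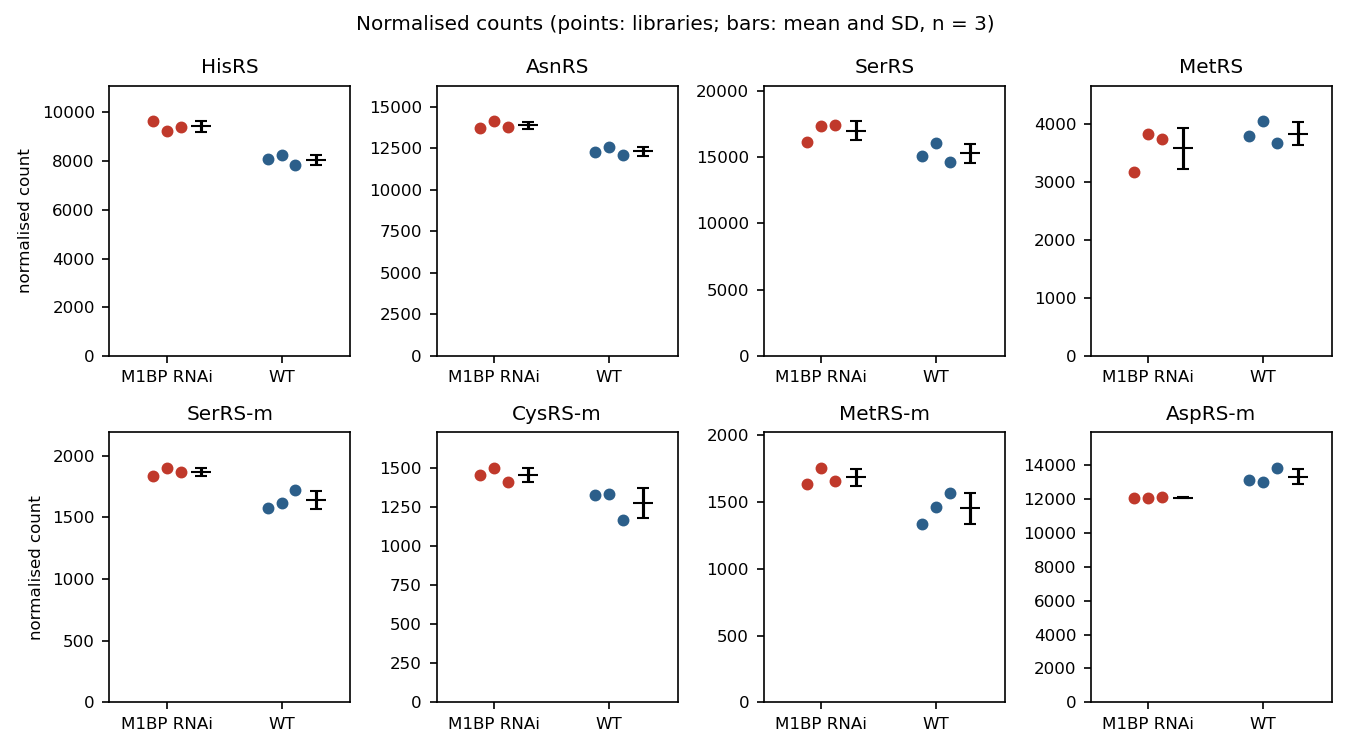
Normalised counts of 4 cytosolic genes (top) and 4 mitochondrial genes (bottom), with M1BP RNAi (red) left of WT (blue). Points are libraries, and bars give the mean and SD (n = 3). HisRS, AsnRS, SerRS, SerRS-m, CysRS-m and MetRS-m lie higher in M1BP RNAi without overlap, AspRS-m lies lower, and MetRS overlaps.

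For 12 amino acids there was 1 gene for each compartment, and their ratio compares the transcript levels of these nuclear genes within a library. The cytosolic gene was the higher of the pair throughout, per length, and the ratio ran between 1.86 ± 0.21 in M1BP RNAi and 1.87 ± 0.10 in WT for leucine and 12.1 ± 0.38 in M1BP RNAi and 12.5 ± 0.99 in WT for serine. In 10 pairs the genotypes overlapped. The aspartate ratio was 3.51, 3.48 and 3.49 in M1BP RNAi, against 3.29, 3.13 and 2.90 in WT, all higher in M1BP RNAi. This ratio is as uncertain as the AspRS counts, since exons of other genes cover 73.5% of the exonic bases of AspRS. The methionine ratio was 2.46, 2.76 and 2.86 in M1BP RNAi, against 3.60, 3.51 and 2.97 in WT, all lower in M1BP RNAi. For both, the exact two-sided permutation p was 0.1, the smallest that 3 against 3 libraries allow, and 0.6 after adjustment over the 12 pairs. The plot of pair ratios places these beside the others.

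**Figure D5:**
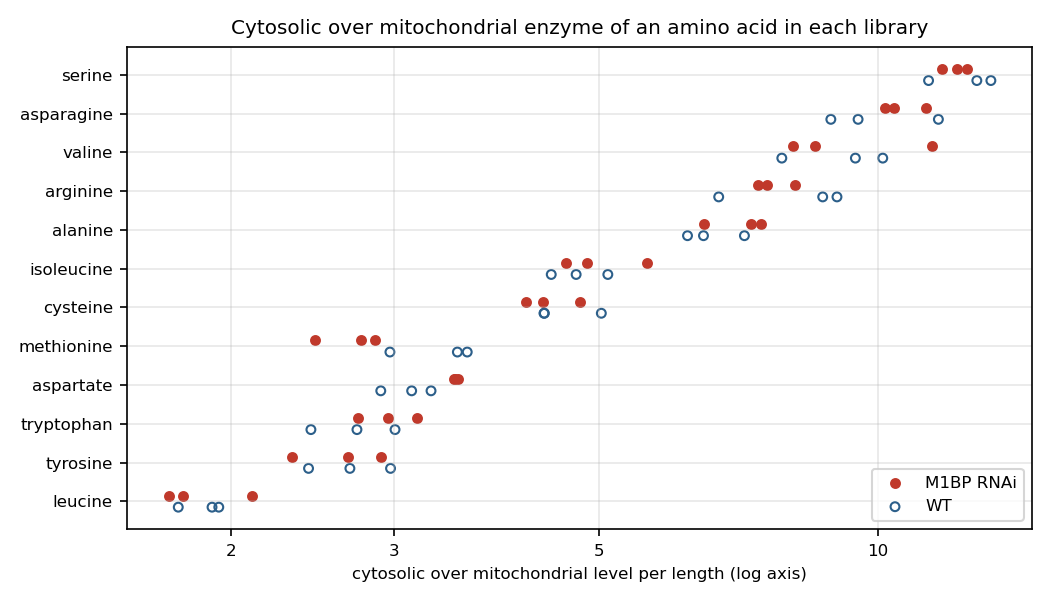
Ratio of the cytosolic over the mitochondrial synthetase level per exonic length in each library, on a log axis, for the 12 amino acids with 1 gene in each compartment. Filled red points are M1BP RNAi and open blue points WT. The genotypes are separate for methionine and aspartate, in opposite directions, and overlap in the other 10 pairs.

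The genes were spread over several chromosome arms. Cytosolic genes lay on X (4), 2L (5), 2R (4), 3L (3) and 3R (4), and mitochondrial genes on 2L (1), 2R (4), 3L (7) and 3R (3). TyrRS and GluRS-m, the closest neighbours, lie 171 bases apart on the minus strand of 3L, with levels of 54.4 and 9.30 CPM per kilobase and log2 fold changes of 0.0017 and 0.061. Exons of 16 of the 35 genes (6 cytosolic, 10 mitochondrial) overlap another gene. The 19 without any overlap had a median log2 fold change of 0.059, with 0.063 over 14 cytosolic and 0.059 over 5 mitochondrial genes. ArgRS-m shares 11.8% of its exonic bases with the opposite-strand gene mRpS9, a mitochondrial ribosomal protein gene that rose in M1BP RNAi (1681 ± 40.1 normalised counts in M1BP RNAi and 1346 ± 99.6 in WT, adjusted p 0.0465, edgeR). Its part in the ArgRS-m value was not tested.

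The partners of the synthetases in translation were read beside the same shares of all tested genes, 4.09% in either direction at an adjusted p of 0.05, and 10.1% higher and 10.1% lower at an unadjusted p under 0.05. Of the 4 scaffold and synthetase-like genes AIMP1, AIMP2, AIMP3 and Slimp, a mitochondrial protein of insects related to seryl-tRNA synthetase, 0 of 4 passed an adjusted p of 0.05 with edgeR or with DESeq2, with a median log2 fold change of 0.092 and 1 gene higher at an unadjusted p under 0.05. This gene was AIMP1, with 3130.4, 3185 and 3352 normalised counts in M1BP RNAi, against 2629, 2978 and 2669.8 in WT, and no overlap (log2 fold change 0.22, edgeR adjusted p 0.114). Of the 7 cytosolic elongation factors, which deliver charged tRNAs to the ribosome and move it along the message, 0 of 7 passed with either tool, with a median of 0.013 and a range of -0.17 to 0.20. At an unadjusted p under 0.05, 2 of them (eEF1beta and eEF1delta) were higher and 1 (eEF1alpha2) lower. Mitochondrial translation factors and the glutamyl-tRNA amidotransferase were represented by 12 of 13 genes sought, of which 0 passed with either tool and 1 was higher (mEFTu1) and 1 lower (GatB) at an unadjusted p under 0.05, with a median of 0.081 and a range of -0.27 to 0.23. In this list 3 genes (mEFTu1, mEFTu2 and GatC) were higher without overlap and 1 (GatB) lower, where 13.8% of tested genes lay above and 12.3% below. Within the amidotransferase, GatB had 1685 ± 133 normalised counts in M1BP RNAi and 1954 ± 77.2 in WT (log2 fold change -0.21, adjusted p 0.163, edgeR). GatC had 2524 ± 84.3 in M1BP RNAi and 2365 ± 31.1 in WT (log2 fold change 0.094, adjusted p 0.426, edgeR). GatA overlapped, with a log2 fold change of -0.14. GatC is covered entirely by exons of other genes.

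Among 12 regulators and targets of the integrated stress response, 0 rose and 1 fell with edgeR, where 1.92% of tested genes rose and 2.17% fell. At an unadjusted p under 0.05, 3 were higher and 1 lower, where 10.1% of tested genes were higher and 10.1% lower. DESeq2 called 2 higher (crc and CG6287) and 1 lower (PEK), and of all tested genes 4.02% higher and 4.58% lower. PEK, the kinase of eIF2alpha that responds to stress of the endoplasmic reticulum, had 9191, 9329 and 9226 normalised counts in M1BP RNAi, against 11558, 10557 and 10651 in WT. All M1BP RNAi libraries were below all WT libraries (log2 fold change -0.24 with an SE of 0.057, edgeR adjusted p 0.0471), and over the alternatives the adjusted p ran from 0.0023 to 0.175. The fly ATF4 gene crc had 33768, 37105 and 38358 in M1BP RNAi, against 30805, 31163 and 29501 in WT, without overlap (log2 fold change 0.26, edgeR adjusted p 0.0524), but 73.5% of its exonic bases belong also to CG46314. CG6287, which encodes the first enzyme of serine synthesis, had 1892 ± 94.8 normalised counts in M1BP RNAi and 1498 ± 132 in WT (log2 fold change 0.34, edgeR adjusted p 0.0538). The other 9 had adjusted p of 0.195 or more, and the median over the 12 was 0.072.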

How the data were processed

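From polyA RNA of the sorted myoblasts, cDNA of full length was prepared by SMART-Seq, amplified, and cut by Tn5 tagmentation, without molecular identifiers. The methods describe triplicate RNA preparations, so p-values measure the spread between preparations. The authors deposited raw counts per gene, with reads aligned uniquely to dm6 and summed over exons, in 1 column per library. The submitters' processing notes name bcl2fastq 2.17.1.14, Subread 2.0.3, featureCounts and DESeq2 1.3.0, and strand use and annotation release are not given in the sources used here. A second deposited table gives the authors' own comparison (mean level, fold change, standard error, p and adjusted p per gene), of which only symbols and identifiers were used.

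Groups and replicate numbers came from the sample titles. Counts were tested with edgeR 4.0.16 (R 4.3.3) with TMM factors, filterByExpr with its minimum of 10 counts, genotype alone in the design, and the quasi-likelihood functions glmQLFit and glmQLFTest, and p was adjusted by Benjamini-Hochberg over 10306 genes. The common biological variation between replicates came to 11.9%. SE was derived from the estimate and its F. The 95% intervals are approximate and used 2.24 SE for every member, from the median degrees of freedom over the members. Levels per length are CPM over the effective library size, per kilobase of the authors' exonic length, and fragment bias of the cDNA can shift levels between genes. Library totals of 43086545 to 51855156 left 578 or more counts for each synthetase. Replicates differed by more than sampling noise. The test was tried on simulated data. Alternatives were RLE factors, library totals, no filter, DESeq2 1.42.0, a replicate block and leaving out each library.

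The members, the lists of partner and marker genes and the tests were chosen with earlier results of these data known. Values in every library are given for members with an adjusted p of at most 0.05, for the 3 with the smallest p in each direction of each set, for the highest and lowest level of each set, for both PheRS subunits, for M1BP, and for partner genes with an adjusted p of at most 0.05. AIMP1, crc, CG6287, GatB, CysRS and GlyRS were named after their values were seen. Of 13 mitochondrial factors sought, mEFG2 matched no symbol. Promoter motifs were not analysed here.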

Additional observations from a re-analysis of the deposited data

How the results depend on the processing

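No member passed the threshold of the study (adjusted p of at most 0.001 and 1.5-fold) in any of 12 alternatives, and no mitochondrial member passed an adjusted p of 0.05 in either direction in any of 11. The count of cytosolic members higher at 0.05 was 1, and it was 0 with RLE factors, with library totals alone, without the filter and with a replicate block, 2 with DESeq2, and 0 to 1 when single libraries were left out. The adjusted p of HisRS was 0.0524 with RLE factors, just over 0.05 with library totals, 0.0528 without the filter, 0.0031 with DESeq2 and 0.0362 to 0.159 with a library left out, the lowest without WT replicate 2. The cytosolic median log2 fold change was 0.043 to 0.070 with a library left out. The mitochondrial median was -0.014 to 0.099 and the cytosolic minus mitochondrial difference -0.033 to 0.084, the lowest median and highest difference being those without WT replicate 1. The cause was not tested.

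Of the 35 members, 20 kept the sign of their fold change in every alternative. TyrRS, at 0.0017, was -0.0054 with RLE factors, -0.00036 with library totals and -0.0053 with DESeq2, and -0.041 to 0.055 with a library left out. The other 14 turned sign only when a library was left out, over ranges of -0.021 to 0.051 for AlaRS, -0.033 to 0.019 for GlnRS, -0.047 to 0.0085 for GluProRS, -0.037 to 0.0068 for LeuRS, -0.030 to 0.086 for beta-PheRS, -0.013 to 0.22 for ArgRS-m, -0.035 to 0.17 for AsnRS-m, -0.022 to 0.16 for GluRS-m, -0.095 to 0.012 for IleRS-m, -0.053 to 0.059 for LeuRS-m, -0.074 to 0.017 for ProRS-m, -0.095 to 0.064 for TrpRS-m, -0.041 to 0.099 for TyrRS-m and -0.040 to 0.20 for ValRS-m.

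Samples of the 2 genotypes share replicate numbers, but the deviations of same-numbered libraries correlated at 0.031, -0.046 and -0.16, so the numbers were not read as pairs. With the replicate number as a block no member passed an adjusted p of 0.05, and HisRS had 0.0774. PEK was called in the fit of all libraries but had an adjusted p of 0.0773 with that block, and it kept its sign in every alternative. Leaving out single libraries gave PEK an adjusted p over 0.05 in 5 of 6 cases. Each synthetase had 578 or more counts in a library, and the SE of a log2 fold change reached 0.15, for PheRS-m. The class medians, the counts without overlap and the partner genes were varied by settings added after the data were seen.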
